A study of Mus musculus with 6 samples.

Results

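Endothelin receptor type B (Ednrb), endothelin receptor type A (Ednra), the ligand endothelin-1 (Edn1) and both endothelin-converting enzymes (Ece1 and Ece2) were followed in RNA-Seq of embryonic mouse lenses lacking Gata3. These 5 genes were found by name in the deposited count table, which holds 13024 genes, and all 5 passed the filter on low counts that left 12879 genes for testing. Ednrb was chosen because of its difference between the 2 groups of these libraries, so that difference is described below without a test.

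Each library came from polyA RNA of 10 lenses pooled from 5 embryos at E14.5, on a mixed C57BL/6 + FVB background, with 3 pools in each group. The mutant pools are Gata3 f/f, Pax6-Cre/+ (Gata3 CKO, labelled Gata3 -/-), in which Cre under a Pax6 eye enhancer and the P0 promoter deletes exon 4 of Gata3 in the lens and corneal precursors of the surface ectoderm. The control pools carry no Cre. They are labelled wild type and are given as Gata3 f/wt in one place and Gata3 f/f in another by the study, so the presence of Cre and the loss of Gata3 cannot be told apart. Between 15157230 and 18811104 fragments were counted per library. Gata3 itself had 202, 386 and 156 counts in the control pools and 910, 1064 and 894 in the CKO pools, each in the order of replicates 1, 2 and 3 that all values below follow. It was thus higher in the libraries labelled CKO, but it covers all exons and does not single out the deleted one, so it does not check the labels. Directions below are those of the libraries labelled CKO.

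Endothelins are short peptides that are cut from larger precursors, first by furin-type convertases and then by the membrane metalloproteases Ece1 and Ece2. They act on both G protein-coupled receptors, Ednra, which favours some endothelins (endothelin-1 among them), and Ednrb, which takes all endothelins with similar affinity. In the embryo Ednra is best known from cranial neural crest mesenchyme and vascular smooth muscle, and Ednrb from neural crest precursors of melanocytes and enteric neurons, from endothelium and from glia.

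In GRCm38, the assembly of the mm10 build used by the authors, Ednrb (ENSMUSG00000022122.15) lies on the reverse strand of chr14:103814625-103844402 and Ednra (ENSMUSG00000031616.7) on the reverse strand of chr8:77663031-77724464. Edn1 (ENSMUSG00000021367.8) lies on the forward strand of chr13:42301476-42307990, Ece1 (ENSMUSG00000057530.14) on the forward strand of chr4:137862237-137965229 and Ece2 (ENSMUSG00000022842.18) on the forward strand of chr16:20629828-20646485. Of the exon bases of Ece2, 57.5% (2937 bases) are shared with Gm49333, a gene on the same strand, so its counts are uncertain. Ednra and Edn1 share 91 and 35 exon bases with genes on the opposite strand.

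The promoters of the receptor genes are shown because the factor deleted here, Gata3, binds GATA sites. They are RefSeq sequences of GRCm38.p6, printed 5′ to 3′ up to the base before the first annotated exon at that start, with any GATA core (GATA, or TATC on the other strand) in capitals. The Ednrb window (chr14:103843702-103843951, reverse strand) lies in an intron of a longer annotated transcript that starts further upstream. The Ednra window (chr8:77724465-77724702, reverse strand) leaves out the 12 bases nearest its RefSeq start, which an annotated exon covers.
Ednrb promoter: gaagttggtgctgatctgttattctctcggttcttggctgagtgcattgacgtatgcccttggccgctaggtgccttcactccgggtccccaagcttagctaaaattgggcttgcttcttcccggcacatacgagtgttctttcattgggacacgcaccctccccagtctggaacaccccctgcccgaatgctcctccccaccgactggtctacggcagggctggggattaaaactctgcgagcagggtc
Ednra promoter: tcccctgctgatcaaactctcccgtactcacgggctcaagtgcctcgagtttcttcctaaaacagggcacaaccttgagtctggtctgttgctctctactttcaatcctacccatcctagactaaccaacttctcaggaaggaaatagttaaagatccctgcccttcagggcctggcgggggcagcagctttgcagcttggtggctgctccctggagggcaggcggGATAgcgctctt
Within 250 bases before to 50 bases after the start, the longer forms AGATAA or AGATAG, and TGATAA or TGATAG, were searched on both strands. Ednrb held 0 such sites and 0 cores, and Ednra held 0 sites and 1 core. The Ece2 window and the 4 Ece1 windows held 0 sites. Edn1 held 1 site, in capitals below, whose first base is base 9 counted from 1 at the start (chr13:42301472-42301501, forward strand).
Edn1 start region: tagagccgggtcTTATCTctggctgcacgt
Of the 12935 windows of this length that belong to genes in the table, 18.1% held a site and 44.0% a core, and over all 32851 RefSeq windows the shares were 29.8% and 57.9%. A match is only a description of the letters, and its absence from this window says nothing of sites elsewhere. Binding was not measured in these libraries.

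Ednrb, the receptor chosen for its difference, was higher in the libraries labelled CKO. Its counts were 1622, 1956 and 1241 in control and 3917, 4589 and 3526 in CKO. As CPM (a gene's count relative to the library size, scaled with edgeR's TMM factors so that libraries can be compared) these were 103, 138 and 69.3 in control and 254, 233 and 183 in CKO. All CKO libraries lay above all control libraries, with control replicate 2 the highest and control replicate 3 the lowest of the control pools. The means were 103 ± 34.3 CPM (SD, n = 3) in control and 224 ± 36.2 CPM (SD, n = 3) in CKO, a 2.16-fold difference. The fitted log2 fold change was 1.11 with a standard error of 0.26, which takes no account of the choice of this gene. Leaving out any 1 library gave 0.89 to 1.39. Among the 12879 genes tested, 3.67% had every CKO library above every control library and 4.69% had every CKO library below, and nothing is read from the place of Ednrb among the former, since this contrast chose it.

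The spread of Ednrb between pools was far above counting error. Its coefficient of variation was 33.2% in control and 16.2% in CKO, where the counts alone would give 2.50% and 1.58%. The highest control pool was 1.99-fold above the lowest, and the highest CKO pool 1.38-fold above the lowest. Relative to its mean, the control group was thus the more variable one for this gene, while the SDs in CPM were alike (34.3 in control and 36.2 in CKO). The difference between group means in CPM was larger than either range, again a description, since this contrast chose the gene.

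Ednra, the other receptor, gave overlapping groups. Its counts were 279, 185 and 142 in control and 130, 332 and 174 in CKO, which correspond to 17.7, 13.04 and 7.93 CPM and to 8.43, 16.9 and 9.05 CPM. Control replicate 1 and CKO replicate 2 were high, and control replicate 3 and CKO replicate 1 were low. Group means were 12.9 ± 4.87 CPM and 11.5 ± 4.71 CPM (SD, n = 3 each). The log2 fold change was -0.16 (standard error 0.38, 95% interval -1.08 to 0.75, adjusted p = 1.0 in edgeR's quasi-likelihood fit), and it turned to 0.15 without control replicate 1 and to 0.012 without CKO replicate 1. A doubling of Ednra lies outside this interval, while a halving lies within it. Without CKO replicate 2 the log2 fold change of Ednra was -0.56.

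**Figure D1:**
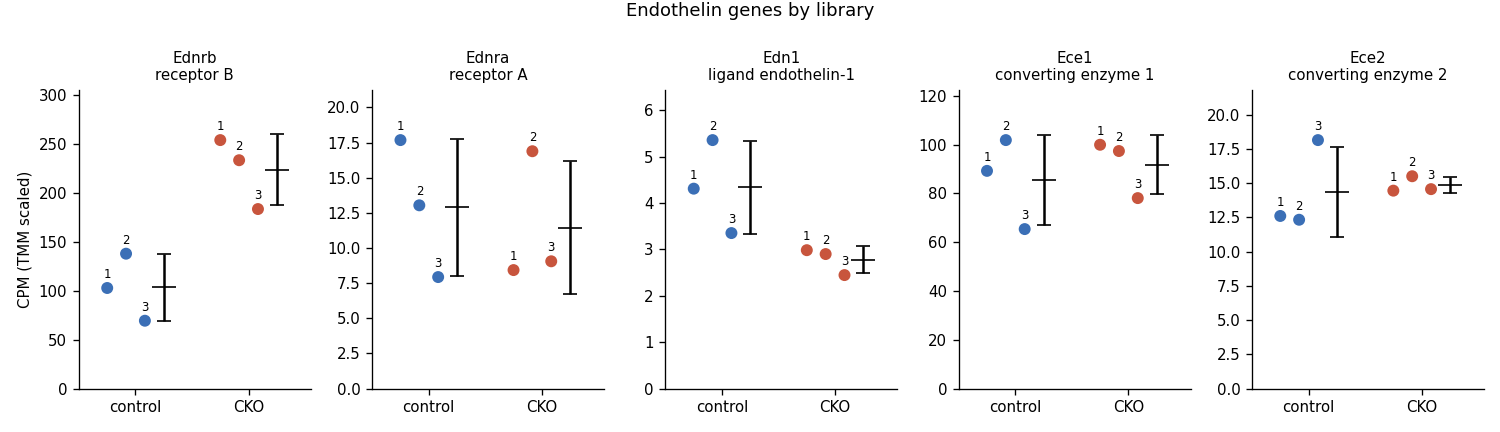
CPM (TMM scaled) of the 5 genes in each library, control in blue and CKO in red, with the replicate number beside each point and a black bar for the group mean ± SD (n = 3). The CKO points of Ednrb (183 to 254 CPM) lie above its control points (69.3 to 138 CPM), those of Edn1 lie below, and the groups of Ednra, Ece1 and Ece2 overlap.

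Edn1, the ligand, was the least counted of the 5 genes. It had 68, 76 and 60 counts in control and 46, 57 and 47 in CKO. On the CPM scale it was at 4.31, 5.36 and 3.35 in control and at 2.98, 2.90 and 2.45 in CKO. Every CKO library was below every control library, as in 4.69% of all genes tested, although CKO replicate 1 and control replicate 3 were close. Means were 4.34 ± 1.002 CPM in control and 2.78 ± 0.289 CPM in CKO (SD, n = 3 each). The log2 fold change was -0.64 (standard error 0.26, 95% interval -1.25 to -0.032), with an unadjusted p of 0.0418 and an adjusted p of 1.0 by edgeR's quasi-likelihood test, so it did not pass the threshold of 0.05. At an unadjusted p under 0.05, 2.24% of all genes tested (289) were lower and 1.3% (168) higher in CKO, a split that turned to 191 lower and 428 higher when libraries were scaled by their totals alone. Leaving out single libraries gave -0.80 to -0.45. Counting error alone gives Edn1 a coefficient of variation of 12.1% in control and 14.1% in CKO, so depth limits this gene more than the other 4.

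Of the other ligands, Edn3 was the one in the table. Edn3 had 54, 33 and 24 counts in control and 27, 120 and 42 in CKO, or 3.42, 2.33 and 1.34 CPM against 1.75, 6.10 and 2.19 CPM. CKO replicate 2 stood above the rest and the groups overlapped (log2 fold change 0.51, standard error 0.57, adjusted p = 1.0, edgeR's quasi-likelihood test).

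Ece1, the more abundant converting enzyme, stayed within the spread of the pools. Its counts were 1408, 1445 and 1170 in control and 1541, 1914 and 1500 in CKO, or 89.2, 102 and 65.4 CPM against 99.9, 97.3 and 78.1 CPM. Control replicate 3 was the lowest library, and the highest was control replicate 2. The log2 fold change was 0.10 (standard error 0.18, 95% interval -0.32 to 0.53, adjusted p = 1.0 in edgeR's quasi-likelihood fit). Its sign turned, to -0.058, without control replicate 3. Ece2, the related enzyme, had 199, 175 and 325 counts in control and 223, 305 and 280 in CKO. Its CPM values were 12.6, 12.3 and 18.2 in control, and 14.46, 15.5 and 14.6 in CKO, which fall between the control values. Its log2 fold change was 0.046 (standard error 0.18, 95% interval -0.38 to 0.47, adjusted p = 1.0 by edgeR's quasi-likelihood test), which turned to -0.023 without control replicate 1 and to -0.039 without control replicate 2. For both enzymes the interval leaves out a doubling or a halving of the level.

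Levels of different genes were compared per length, as CPM per kilobase of annotated exon. Ednrb was the highest of the endothelin genes in all 6 libraries and Ece1 came next in all 6. On this scale Ednrb was at 24.1, 32.3 and 16.2 in control and 59.5, 54.7 and 43.0 in CKO, and Ece1 at 16.8, 19.2 and 12.3 and at 18.9, 18.4 and 14.7. The control ranges of these genes overlap, whereas the CKO values of Ednrb were all above those of Ece1. Ece2 (2.41 to 3.55 over the 6 libraries), Ednra (1.45 to 3.23) and Edn1 (1.14 to 2.50) were lower and changed places from library to library, so their order is not resolved beyond the spread. Edn3 was the lowest in 5 libraries, and in CKO replicate 2 its level of 1.48 was above that of Edn1. Among 12787 genes with an exon length, the mean level of Ednrb was at percentile 84.8 in control and 95.2 in CKO. The difference of Ednrb between groups on this scale is again a description, since this contrast chose it. Ece1 was at percentile 74.9 and 77.1, and Ednra at 19.6 and 17.7.

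**Figure D2:**
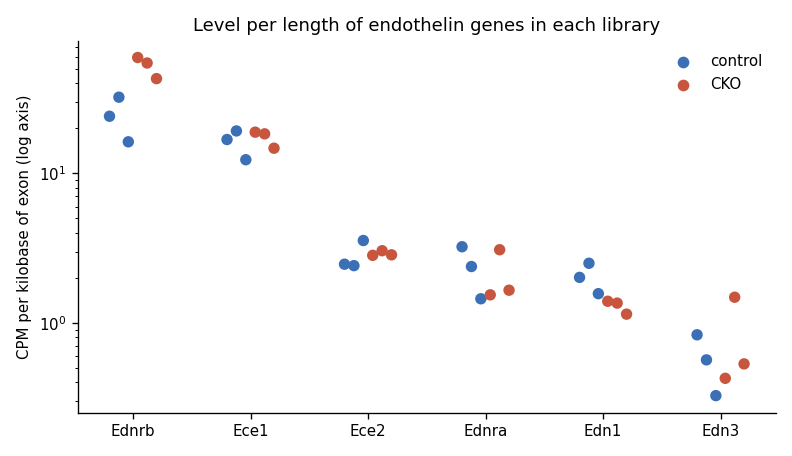
Level of each gene as CPM per kilobase of exon on a log axis, 1 point per library, control in blue and CKO in red, with genes ordered by their mean over all 6 libraries. Ednrb (16.2 to 59.5) and Ece1 (12.3 to 19.2) lie above Ece2, Ednra, Edn1 and Edn3 in every library.

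Ednrb was the predominant endothelin receptor transcript of these pools. Per kilobase it exceeded Ednra 7.46-, 13.6- and 11.2-fold in control replicates 1, 2 and 3 and 38.7-, 17.7- and 26.0-fold in CKO replicates 1, 2 and 3. This put the Ednrb share of the receptor level at 88.2%, 93.1% and 91.8% in control and 97.5%, 94.7% and 96.3% in CKO. Since this contrast chose Ednrb, the difference between groups in these ratios and shares is no separate result. The lowest share was in control replicate 1 and the lowest CKO share in replicate 2, which are the libraries with the most Ednra. With the length of the transcript that has the longest coding sequence in place of all exons, Ednrb still exceeded Ednra 5.13-, 9.33- and 7.71-fold in control and 26.6-, 12.2- and 17.9-fold in CKO.

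Genes with a profile similar to that of Ednrb were found over all 6 libraries, from log2 CPM centred on each gene's own mean, among 12792 genes. Among the nearest were Pnpla3, a lipid hydrolase, and Eva1a, an autophagy regulator, each at a root mean square distance of 0.14 on the log2 scale. Stk26, a serine/threonine kinase, and Rian, an imprinted non-coding RNA, were at 0.16. Eva1a was at 11.2, 15.2 and 7.76 CPM in control and at 25.4, 28.02 and 25.3 CPM in CKO. Rian, the most abundant of these, was at 232, 253 and 166 CPM in control and at 439, 507 and 376 CPM in CKO. In these 4, as in Ednrb, control replicate 3 was the lowest library and control replicate 2 the highest control library. Because likeness to Ednrb chose them, their difference between groups is no separate result.

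The profiles nearest to Ednra were those of the kinase Plk2 at a distance of 0.06 and the endocytic adaptor Dab2 at 0.10. Distances were not scaled to the spread of each receptor, so they are not compared between Ednrb and Ednra. The TGF-beta family receptor Acvrl1, known from endothelium, and the vesicle coat subunit Sec24d were at 0.12. Trpm1, a cation channel known from melanocytes and retinal bipolar cells, was at 0.13. Plk2 was at 35.5, 26.4 and 17.6 CPM in control and at 18.6, 35.2 and 17.9 CPM in CKO, so it too was highest in control replicate 1 and CKO replicate 2. Trpm1 was at 160, 112 and 63.0 CPM in control and at 65.7, 157 and 66.2 CPM in CKO.

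**Figure D3:**
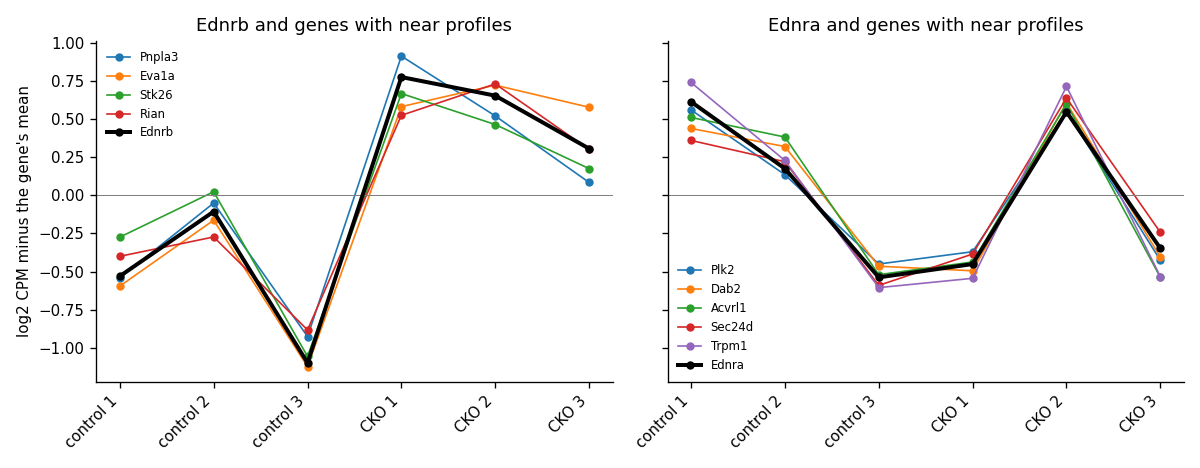
Log2 CPM of each gene minus its own mean over the 6 libraries (y axis) in each library (x axis), with Ednrb and Ednra as black lines and genes with the nearest profiles (4 for Ednrb, 5 for Ednra) as coloured lines. The Ednrb set steps up from the control to the CKO libraries, and the Ednra set peaks in control replicate 1 and CKO replicate 2.

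Markers of the cell types a dissected lens can hold were summed in each library. The lens label was borne out by Foxe3, a transcription factor of the lens epithelium (69.9 to 192 CPM over the 6 libraries), and by Bfsp2, a beaded filament protein of fibre cells (193 to 963 CPM). Bfsp2 was at 531, 963 and 364 CPM in control and at 235, 205 and 193 CPM in CKO, and the 14 fibre markers in the table were all lower in CKO, 6 of them at an unadjusted p under 0.05 (2.24% of all genes tested were) and 0 after adjustment (2 with DESeq2). Their median log2 fold change of -0.88 became -0.33 without control replicate 2. Their sum was 34684, 70990 and 24013 CPM in control and 29443, 23813 and 20872 CPM in CKO, so control replicate 2 stood far above the rest. Within each group the libraries ranked by Ednrb, Edn1 and Ece1 in the same order as by this sum. The order was control replicate 2, 1, 3 and CKO replicate 1, 2, 3, and Gata3 followed it too. How many of all genes follow this order was not counted, so nothing is read from it. Between groups Edn1 was lower in CKO like the fibre markers, Ednrb and Gata3 were higher, and Ece1 overlapped. The 7 lens epithelium markers were also all lower in CKO (6 of 7 when scaled by library totals), with a median of -0.35 that turned to 0.04 without control replicate 2, and they summed to 1457, 1723 and 1169 CPM in control and to 1237, 1323 and 1214 CPM in CKO. The part of either list in the results on Ednrb, Edn1 and Ece1 was not tested. In bulk samples, fewer cells of a type and less RNA per cell cannot be told apart.

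Cells from outside the lens were also represented. The 12 mesenchyme markers in the table summed to 2325, 539 and 308 CPM in control and to 303, 4183 and 597 CPM in CKO. Col1a1, the fibrillar collagen that defines this list, was at 599, 126 and 55.1 CPM and at 58.0, 1130 and 114 CPM. The 8 neural crest and pigment cell markers in the table summed to 388, 131 and 126 CPM in control and to 132, 385 and 118 CPM in CKO, and Sox10 was not analysed here. Both lists were highest in control replicate 1 and CKO replicate 2, as was Ednra. Within each group the endothelial and surface ectoderm sums were also highest in these libraries. The endothelial sums of control replicates 1 and 2 were close (401.8 and 401.6 CPM). The 6 surface ectoderm markers in the table summed to 101, 99.6 and 42.1 CPM in control and to 62.6, 154 and 74.1 CPM in CKO. Without control replicate 1 and CKO replicate 2 the log2 fold change of Ednra was -0.25, that of Ednrb 1.09 and that of Edn1 -0.67, a setting chosen after seeing the data. The part of these cells in the level of Ednra was not tested.

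Endothelium, pericytes, retina and macrophages can carry endothelin receptors or ligands as well. The 11 endothelial markers summed to 402, 402 and 300 CPM in control and to 273, 361 and 273 CPM in CKO, with Pecam1 at 39.0, 45.8 and 21.3 CPM and at 21.7, 29.7 and 18.9 CPM. The 8 pericyte and smooth muscle markers in the table summed to 242 to 339 CPM in control and 244 to 329 CPM in CKO, with Pdgfrb at 20.1 to 39.3 CPM and 15.8 to 50.1 CPM. Retinal markers summed to 3106, 1834 and 4170 CPM in control and to 3160, 2843 and 3805 CPM in CKO. Macrophage markers summed to 88.1 to 166 CPM and 78.3 to 104 CPM, with Csf1r at 22.9 to 37.7 CPM and 17.8 to 28.0 CPM. In CKO, 10 of 11 endothelial markers were lower, 1 of them at an unadjusted p under 0.05. All 10 macrophage markers in the table were lower, 2 of them at that level. Of all 12879 genes tested, 6364 were lower, and 2.24% were lower at that level. The endothelial median was -0.39 (-0.77 to -0.2 with single libraries left out) and the macrophage median -0.51 (-0.72 to -0.25). Of the 8 pericyte markers, 6 were lower. All 12 mesenchyme and all 16 retinal markers in the table were higher, with medians of 0.59 and 0.17 that turned to -1.22 without CKO replicate 2 and to -0.14 without control replicate 2. The groups overlapped in the sum of each of the 11 marker lists, and none of the lists had a gene with an adjusted p under 0.05 in edgeR's quasi-likelihood test. Whether these cells contributed to the endothelin genes was not tested.

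**Figure D4:**
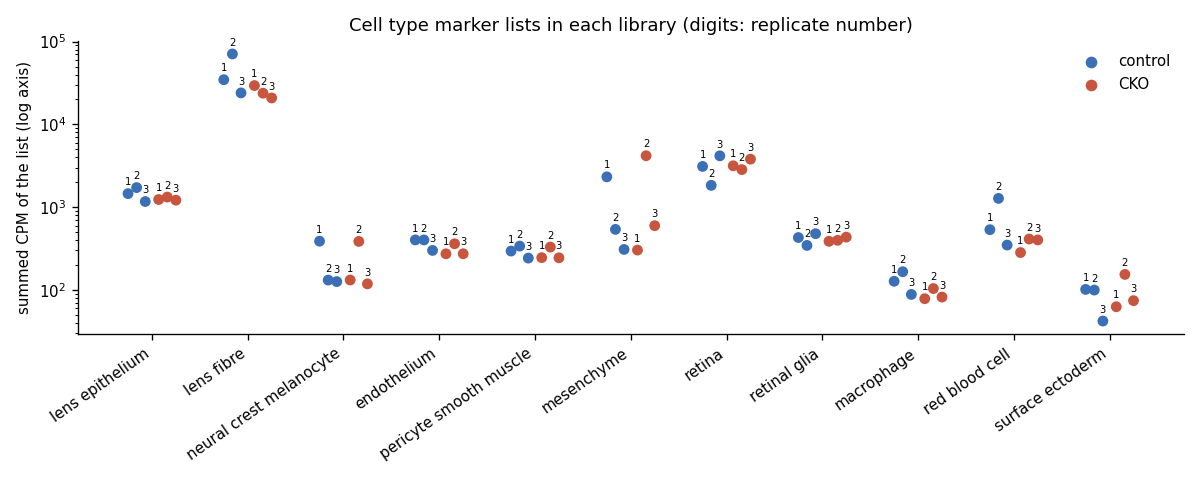
Summed CPM of each marker list on a log axis, 1 point per library, control in blue and CKO in red, with the replicate number above each point. The groups overlap in every list, and the mesenchyme, neural crest and surface ectoderm lists are highest in control replicate 1 and CKO replicate 2.

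The rest of the pathway was described from 8 lists of 65 genes, of which 55 were in the table and all 55 were tested. Of these, 28 were higher and 27 lower in CKO, and their median was 0.0055 on the log2 scale beside 0.0019 over all genes tested. Scaling by library totals alone raised the median of all genes to 0.10 and that of the pathway to 0.12, with 40 of the 55 higher, so directions of small differences hold only relative to the other genes. Ednrb was left out of the counts of calls, because this contrast chose it. With edgeR, 0 of the other 54 had an adjusted p under 0.05, as had 0 of all 12879 genes (0.0%), while DESeq2's Wald test called 85 of 12969 genes (0.655%) and 0 of the 54. At an unadjusted p under 0.05 there were 3 of the 54, Gna11 higher, Edn1 and Rgs3 lower, beside 3.55% of all genes tested. Leaving out control replicate 3 gave 11 of the 54, beside 9.59% of all genes. Leaving out control replicate 1 gave 0, beside 2.44%, and leaving out CKO replicate 1 or 3 gave 1, beside 2.51% and 2.11%. With the replicate number as a block it was 7, beside 4.01%. Without the 5 genes followed here, 25 of 50 were higher and 25 lower, with a median of 0.0026. In 3 of these 50 every CKO library was above every control library, and in 1 every CKO library was below. The shares over all genes tested were 3.67% and 4.69%, so nothing is read from such separation in the genes named below.

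Gna11, an alpha subunit of the Gq family that carries endothelin receptor signals to phospholipase C, was at 77.7, 80.8 and 77.3 CPM in control and 87.5, 89.0 and 93.3 CPM in CKO. All CKO libraries were above control, by 0.19 on the log2 scale (standard error 0.066, adjusted p = 1.0 by edgeR's quasi-likelihood test). Of the 10 G protein subunits, 8 were higher in CKO (all 10 when scaled by library totals), with a median of 0.070 and a range from -0.036 for Gna13 to 0.31 for Gnao1. Gnai1, an inhibitory alpha subunit, also had every CKO library above control (0.18, standard error 0.088). Rgs3, which speeds up the shut-off of G protein signals, was at 35.5, 36.9 and 36.1 CPM in control and 28.3, 31.2 and 31.6 CPM in CKO. All CKO libraries were below control, with -0.25 on the log2 scale (standard error 0.083, adjusted p = 1.0 by edgeR's quasi-likelihood test). Of the 11 desensitisation genes in the table, 5 were higher and 6 lower, from Rgs5 at -0.57 to Arrb1, an arrestin, at 0.16. Rgs5 is also a pericyte marker.

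The remaining lists held no gene at an unadjusted p under 0.05 beyond those named. Among the 7 peptide processing genes the log2 fold change ran from -0.59 for the convertase Pcsk6 (standard error 0.33) to the 0.10 of Ece1. The peptide-degrading enzymes were Mme, or neprilysin, at -0.50 (standard error 0.30), and Ctsa at 0.0055. The 13 calcium signalling genes ran from Prkca, a protein kinase C, at -0.54 (standard error 0.28) to Plcb1, a phospholipase C, at 0.59 (standard error 0.28). Prkca was highest in control replicate 2 (78.5 CPM), and Plcb1 had 20.8, 31.1 and 15.0 CPM in control and 40.004, 33.2 and 27.7 CPM in CKO. Of the 8 response genes that G protein-coupled receptors can induce, 3 were higher and 5 lower, from Junb at -0.55 (standard error 0.37) to Egr1 at 0.32 (standard error 0.44). Jun was the only response gene in the table with every CKO library above control, at 59.7, 55.0 and 63.2 CPM and at 64.2, 65.8 and 71.7 CPM. Of all genes tested, 3.67% were above in this way. Gnai1 and Jun were named after their values were seen.

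**Figure D5:**
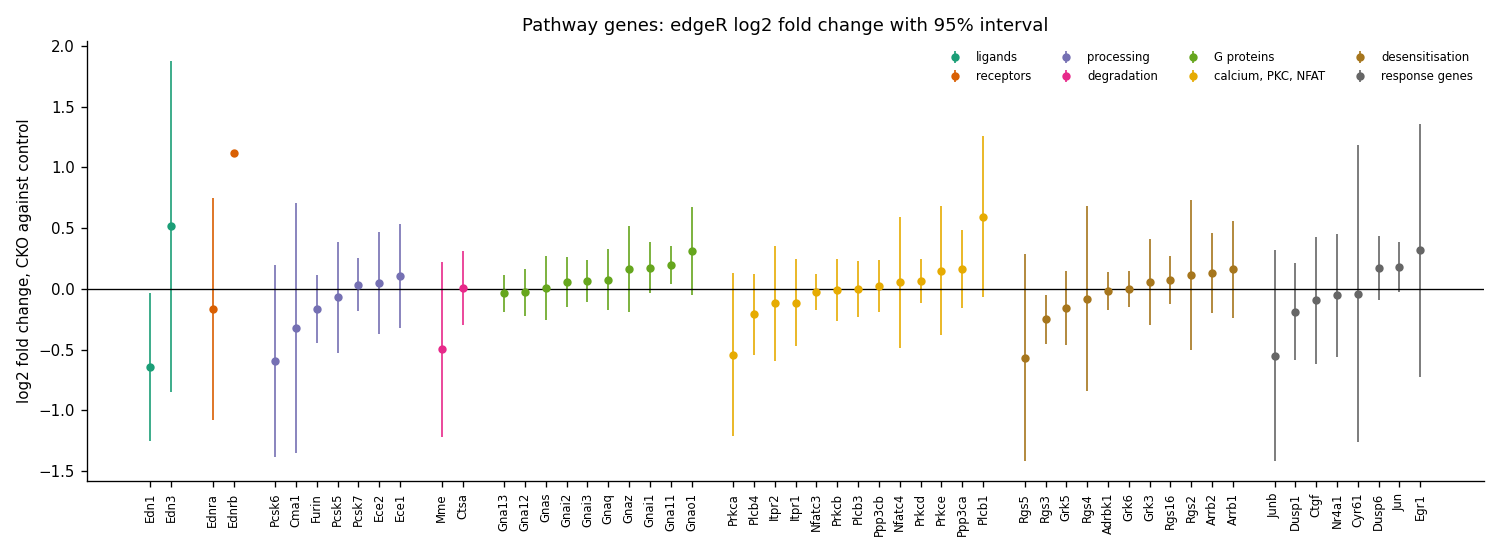
Log2 fold change of CKO against control (y axis) from edgeR for the 55 pathway genes tested, grouped by role and coloured by list, with bars for the 95% interval except for Ednrb, which this contrast chose. Ednrb at 1.11 lies highest, Edn1 at -0.64 is lowest, and most intervals cross 0.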

How the data were processed

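PolyA-selected, stranded libraries of E14.5 lens pools (3 control, 3 Gata3 CKO) had been sequenced. The submitters' processing notes name Trim Galore, TopHat2 2.0.13, HTSeq 0.6.1, Cuffdiff 2.2.1, DESeq2 and the mm10 build. The authors deposited raw counts of fragments per gene for genes whose mean FPKM exceeded 1 in at least 1 group. HTSeq's settings for strand and overlapping genes are not given in the sources used here. CKO samples carry the numbers of their titles.

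Here, the counts were scaled by TMM in edgeR 4.0.16 (R 4.3.3) and genes reaching 10 counts in 3 or more libraries entered glmQLFit (robust) and glmQLFTest, with Benjamini-Hochberg adjustment over all genes tested. With 3 pools in each group and 15157230 to 18811104 counts per library, pool-to-pool spread, not depth, set the precision of most values, and counting errors cover counting only. CPM per kilobase used exon lengths of GENCODE M21, which 237 genes lacked. Profiles used log2 CPM with a prior count of 1 and genes of a mean CPM of at least 1.

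The alternatives were DESeq2 1.42.0, limma voom (limma 3.58.1), other scalings, a block for the replicate number, no low-count filter, another gene length, and each library left out in turn. Named genes are the 5 endothelin genes, pathway genes at an unadjusted p under 0.05 or at either end of a list, the 5 nearest profiles of both receptors, defining markers and Gata3, of which 1 nearest profile and 1 marker are not reported here. The genes, lists and tests were chosen with earlier results of these data known. Plots were drawn with matplotlib 3.10.9 in Python 3.11.15.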

Additional observations from a re-analysis of the deposited data

How the results depend on the processing

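The log2 fold change of Ednrb was positive under all alternatives run, between 0.89 and 1.39 with each library left out in turn. Since these same libraries chose Ednrb, its constant sign is a description and no support for the difference. Edn1 was negative under all alternatives run, between -0.80 and -0.45 with each library left out. Ednra ranged from -0.56 to 0.15 when single libraries were left out and changed sign without control replicate 1 (0.15) or CKO replicate 1 (0.012). Ece1 ranged from -0.058 to 0.26 and changed sign without control replicate 3 (-0.058). Ece2 ranged from -0.039 to 0.25 and changed sign without control replicate 1 (-0.023), without control replicate 2 (-0.039), and without control replicate 1 and CKO replicate 2 together (-0.061), the last chosen after seeing the data. The cause was not tested. None of the 4 genes tested passed an adjusted p of 0.05 under any alternative run. Over all genes, the number past the threshold was 0, but 85 with DESeq2's Wald test and 1 with scaling by library totals only, and 0 to 1 with single libraries left out. Among the 54 pathway genes other than Ednrb it was 0 under all alternatives run, and those at an unadjusted p under 0.05 were 3, or 0 to 11 with single libraries left out. With the longest coding transcript as length, the mean level over the 6 libraries was 3.36 for Ednra and 4.63 for Ece2, in place of 2.22 and 2.86 CPM per kilobase.

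To look for pairing, each gene's log2 CPM was taken as its deviation from the mean of its group. Between control and CKO, these deviations had correlations of -0.487, 0.09 and 0.442 for samples with the same replicate number. Only replicate 3 was over 0.1, so the number was not taken as a pairing. With the replicate block, Ednrb had a log2 fold change of 1.16, Ednra -0.16, Edn1 -0.63, Ece1 0.12 and Ece2 0.068, the number of genes past the threshold was 0, and the number of these pathway genes at an unadjusted p under 0.05 was 7 in place of 3. Not every sample correlated best with its own number. Depth limits Edn1, with 46 to 76 counts per library. The coefficient of variation of Edn1 was 23.1% in control and 10.4% in CKO, where counts alone would give 12.1% and 14.1%. Its spread was thus above counting error in control only. Edn3 also had low counts, and its spread between pools was above counting error in both groups. Its coefficient of variation was 44.1% in control and 71.6% in CKO, where counts alone would give 16.4% and 12.6%.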
